A study of Homo sapiens with 8 samples.

Results

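The middle of the demethylation course, days 3 to 5 after DNMT1* withdrawal, was read here in windows of 100 kb. Members were the 100-kb windows of the 22 autosomes in which the libraries titled d3, d4 and d5 each held at least 200 reads, counted as read calls at CpGs. Of 26820 autosomal windows with any read on these days, 13437 (50.1%) met this rule, and they held 88.5 to 89.0% of the autosomal reads of each library. The rule used coverage and no methylation value. The cells belong to HUES64, an established line of human embryonic stem cells. All 8 libraries of the series carry the genotype label DNMT1 knockout, so no library with intact DNMT1 serves as a control. Days count from the withdrawal of DNMT1*, an exogenous DNMT1 that stands in for the missing enzyme. Methylation was measured by RRBS (bisulfite sequencing of a reduced representation of the genome), which covers CpGs close to MspI cut sites. Each day has 1 library, so values are given without tests between days. It is 1 course in 1 line, and expression was not measured, so the cell type label could not be compared with marker genes.

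DNMT1 copies CpG methylation from the parent strand to the new strand behind the replication fork. Without it each round of replication leaves more CpGs unmethylated, unless the de novo enzymes DNMT3A and DNMT3B, which are active in embryonic stem cells, add methyl groups again. Most CpGs in bodies of genes and between genes are highly methylated in such cells, whereas CpG islands at gene starts are mostly unmethylated. A window of this width mixes both kinds, and its level therefore depends on the mix as well as on the methylation of its CpGs.

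The 3 libraries were shallow. They held 15156251, 12928083 and 12359218 reads on days 3, 4 and 5, with a median of 4 reads per CpG, against 77691782 to 161534152 reads in the other 5 libraries. Pooling gave a kept window a median of 664, 574 and 542 reads on days 3, 4 and 5, over a median of 141 listed CpGs, that is CpGs with a read in at least 1 of the 3 files. Days 2 and 6, which come from deep libraries, are used below as libraries that played no part in choosing the windows. Wilson 95% intervals of levels and intervals of ratios cover counting error only. Reads carry no molecular identifiers and 1 read can span several CpGs, so these intervals are too narrow.

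Methylation was lower on each following day, and the second step was the smaller one. Over all kept windows, 3952409 of 13111411 reads were methylated on day 3, a level of 30.1%. On day 4 the level was 21.8% and on day 5 it was 17.7%, each with a counting error of at most 0.0248 points to either side. Day 4 kept 72.2% of the day 3 level (72.1 to 72.3%), and day 5 kept 81.2% of the day 4 level (81.1 to 81.4%). The steps on either side, which compare a shallow with a deep library, kept 69.5% from day 2 to day 3 and 73.2% from day 5 to day 6. Of the 4 daily steps from day 2 to day 6, the step from day 4 to day 5 thus kept the largest share. Written as a halving time, the pooled reads gave 2.13 days for the step from day 3 to day 4 and 3.34 days for the next. No replicate of any day shows how far a second culture would move these shares.

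In points, the spread of levels among windows narrowed as the levels came down. The SDs below are not scaled to the level, which fell as well. The median window was at 32.4%, 23.2% and 19.1% on days 3, 4 and 5. The lower and upper quartiles were 21.5% and 44.5% on day 3, 15.7% and 31.2% on day 4, and 12.5% and 25.8% on day 5. The SD over windows was 13.8 points on day 3, 9.97 points a day later and 8.52 points at the end of the interval. Windows at 50% or more numbered 1546 on day 3 and 16 and 4 on the following days. Windows below 10% rose in number from 709 to 1333 and then 2139. On day 3 the distribution had a second peak above its median, with 526 windows between 46.5% and 48% and 366 in the emptiest bin between it and the median, where on day 2 the upper peak had lain between 67.5% and 69%. On day 4 the upper peak, between 30% and 31.5%, held 666 windows and the emptiest bin 600. On day 5 the numbers were 759 and 743, so hardly any dip was left in bins of the same width. The bins were not narrowed as the spread came down. A kept window had a median of 6883 reads on day 2, against 664, 574 and 542 on days 3, 4 and 5. Counting error thus blurs the days after day 2 more, and its part in the fading of the dip was not tested. The deep library of day 6 was not examined for such a peak.

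**Figure D1:**
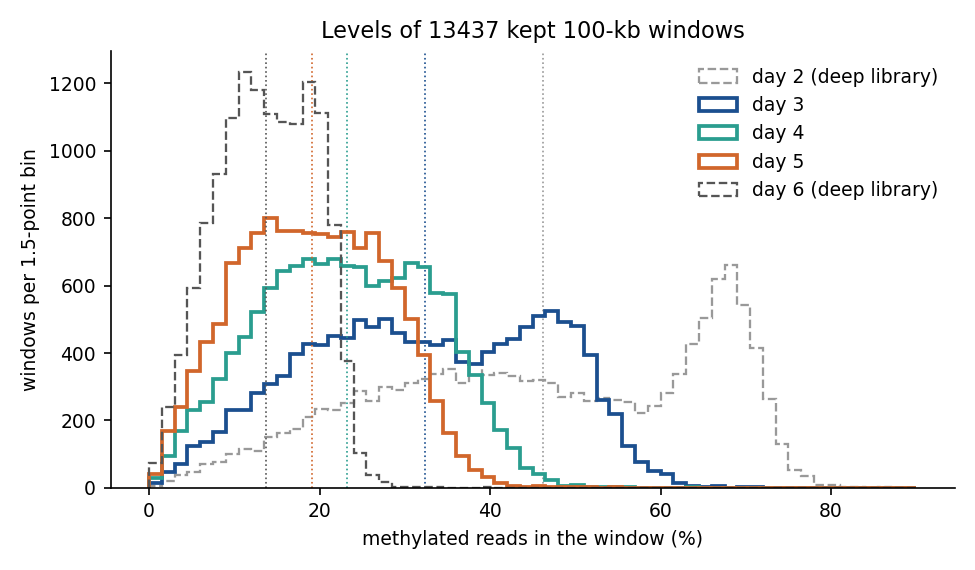
Number of kept windows (vertical axis, per bin of 1.5 points) at each methylation level (horizontal axis, percent of reads methylated) on days 3, 4 and 5 (solid) and on days 2 and 6 (dashed, deep libraries). Dotted lines mark the medians, which for days 3, 4 and 5 stood at 32.4%, 23.2% and 19.1%.

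Nearly every window took part in the first step. From day 3 to day 4 the level was lower in 12934 of 13437 windows (96.3%), and in 8888 (66.1%) the Wilson intervals of the 2 days lay apart. From day 4 to day 5 it was lower in 11509 windows (85.7%), with intervals apart in 3946 (29.4%). Over both steps, day 5 was below day 3 in 13315 windows (99.1%), with intervals apart in 11538 (85.9%). The level was higher on day 4 than on day 3, with intervals apart, in 8 windows, and higher on day 5 than on day 4 in 46. In all, 11024 windows were lower in each step, 1910 only in the first, 485 only in the second and 18 in neither. The 1910 windows had fewer reads on day 5 than those lower in both steps, with a median of 422.5 against 583. The median change was -8.70 points from day 3 to day 4 and -3.84 points from day 4 to day 5.

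The share of the earlier level that a window kept was summarised over the 10535 windows at 20% or more on day 3, since a ratio of low levels is mostly counting noise. The median window kept 71.2% from day 3 to day 4, with quartiles of 64.9% and 78.0%. From day 4 to day 5 it kept 82.1%, with quartiles of 73.3% and 91.8%. In 7441 of these windows (70.6%) the share kept was larger in the second step, but both shares contain day 4, so its counting error raises one and lowers the other. Asking for 20% on day 3 also favours windows that day 3 happened to read high. With 20% asked on day 2 in its place, the medians were 71.7% and 81.9%.

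**Figure D2:**
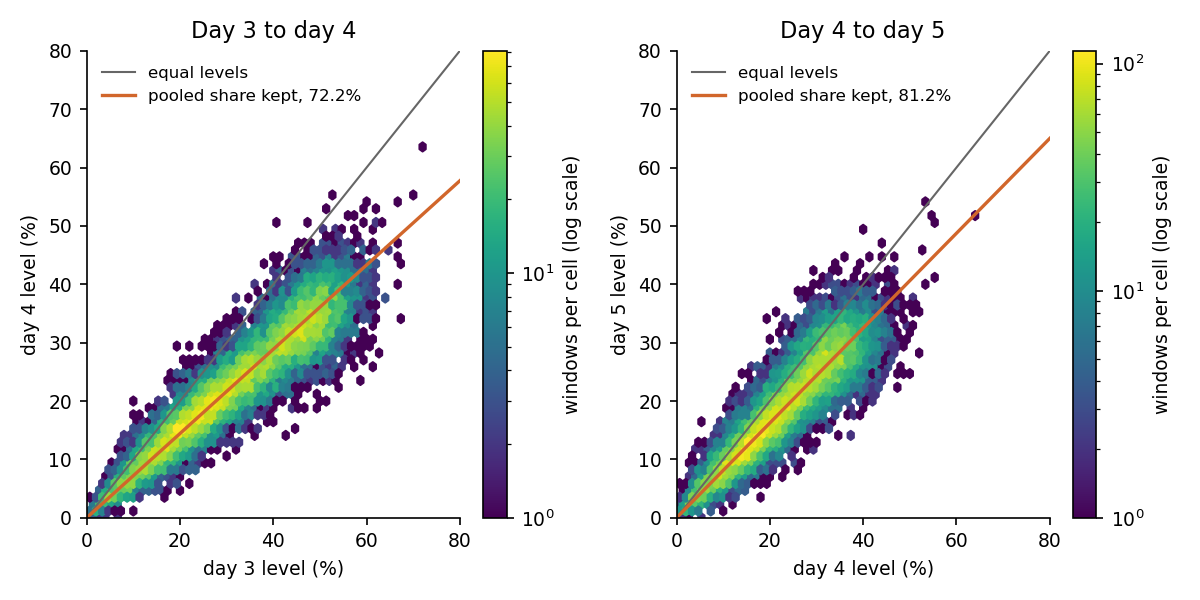
Level of each kept window on day 4 against day 3 (left) and on day 5 against day 4 (right), in percent of reads methylated, with the number of windows per cell in colour on a log scale. Grey lines mark equal levels and orange lines the pooled shares kept of 72.2% and 81.2%, and the cloud on the right lies closer to the grey line.

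Points lost depended on the level from which a window came, and the share kept much less. Windows were put into 5 classes of about 2687 by their level on day 2, a library outside both steps. In the lowest class, at 18.9% on day 2, levels were 13.3%, 9.75% and 7.79% on days 3, 4 and 5. In the middle class, at 46.4% on day 2, they were 32.1%, 23.2% and 18.9%. In the highest class, at 69.95% on day 2, they were 50.1%, 35.4% and 29.1%. The median change from day 3 to day 4 grew from -3.35 points in the lowest to -14.5 points in the highest class. The share kept over both steps was 58.7% in the lowest class (58.4 to 59.0%) and 58.0% in the highest (57.8 to 58.2%), with 58.3 to 58.8% in between. The 2 steps divided this loss unequally. From day 3 to day 4 the lowest class kept 73.5% and the highest 70.6%, and from day 4 to day 5 the lowest class kept less than the highest, 79.8% against 82.1%.

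The mix of reads moved between the libraries, which bears on both pooled steps. CpGs in kept windows were classed by their pooled reads of days 0 and 1, where at least 10 reads were asked. CpGs at 20% or less there received 35.9% of the reads on day 3, 34.5% on day 4 and 36.0% on day 5. Day 4 thus held fewer reads at unmethylated CpGs than its neighbours. The steps were therefore also read within classes. The 1027463 CpGs at 80% or more stood at 53.0% on day 3, 37.5% on day 4 and 31.0% on day 5. They kept 70.8% in the first step (70.7 to 70.9%) and 82.8% in the second (82.6 to 82.9%). The 647229 CpGs between 20% and 80% stood at 35.9%, 25.2% and 20.8%, and kept 70.3% and 82.5%. The gap between the steps was wider within either class than in the pooled reads.

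CpGs at 20% or less on days 0 and 1 made up the third class, with 919817 members. They read 0.803% methylated on day 3, 0.616% on day 4 and 0.615% on day 5. They kept 76.7% in the first step and 99.9% in the second (98.1 to 101.7%), so days 4 and 5 read alike in this class. Levels this low can include unconverted cytosines and call errors, and no conversion rate was available per library. These shares are therefore not read as loss of methylation or its absence. On day 6 the class read 0.406%.

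Listed CpG count per window was compared next, in 5 classes of 2641 to 2723 windows. The count reflects MspI sites and coverage as well as CpG density. The class with fewest held at most 80 listed CpGs, with a median of 66, and the class with most held 268 to 2264, with a median of 388. Sparse windows were more methylated. The class with fewest stood at 40.01%, 28.7% and 23.9% on days 3, 4 and 5. The class with most stood at 28.9%, 20.8% and 16.7%. At CpGs of 20% or less lay 17.4% of the day 3 reads in the former and 37.9% in the latter, which is a difference in mix. On days 4 and 5 this part was 16.8% and 17.3% in the class with fewest, and 36.5% and 38.1% in the class with most. The dip on day 4 was thus deeper, in points, in the class with most. Shares kept over all CpGs of a class include this change of mix.

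In the first step, the share kept over all kept windows of a class was 71.7%, 71.9%, 72.1%, 72.7% and 71.8% from the class with fewest to the class with most. The last differed from the first by 0.07 points (-0.27 to 0.42), less than counting error. With the classes cut anew, this difference was -1.18 points with 1000 reads asked per window and -1.04 with each CpG weighted equally. In the second step the share kept declined along the classes, at 83.2%, 82.8%, 81.9%, 80.9% and 80.6%. Here the class with most kept less than the class with fewest, by a difference of -2.54 points (-3.04 to -2.04), and it kept less on 20 of the 22 autosomes. That difference depended on the rules: it was -3.27 points with 100 reads asked per window, -3.09 in 1-Mb windows and -2.87 between the outermost of 10 classes, but -0.87 points when only CpGs at 80% or more on days 0 and 1 were summed, -0.50 with each CpG weighted equally, -1.68 in 20-kb windows and -0.28 with 1000 reads asked. Over both steps the shares kept were 57.9% in the class with most and 59.6% in the class with fewest.

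Since windows with few listed CpGs were more methylated, the outer classes were also compared within each of the 5 classes of day 2 level. In the first step the difference between most and fewest listed CpGs ran from 1.70 points in the second-lowest level class to -2.77 points in the highest, where 68.8% and 71.6% were kept. In the second step it lay between -2.89 and -0.58 points in the 5 level classes. Over both steps it was -0.95, -0.11, -0.66, -2.06 and -4.13 points from the lowest to the highest level. In the first step the counting intervals of the shares compared were apart only in the highest level class. In the second step and over both steps they were apart only in the second-highest and the highest, and overlapped in the lower level classes.

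With the windows and classes held fixed, the same comparison was made within CpG classes. Among CpGs at 80% or more, the windows with most listed CpGs kept 70.5% and then 82.5%, and those with fewest 71.0% and then 83.3%. The differences were -0.54 points (-0.91 to -0.16) and -0.78 points (-1.34 to -0.23). Among CpGs between 20% and 80% they were larger and alike in both steps, at -2.53 points (-3.17 to -1.89) and -2.44 points (-3.37 to -1.51). Intermediate CpGs of the windows with most listed CpGs thus had the lowest share left on day 5, 56.1% of their day 3 level, against 59.9% in windows with fewest listed CpGs. The steps to the deep libraries went in both directions: from day 2 to day 3 the class with most differed from the class with fewest by -2.12 points, and from day 5 to day 6 by 4.12 points. From day 2 to day 6, between deep libraries, the classes kept 29.7% and 29.8%.

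**Figure D3:**
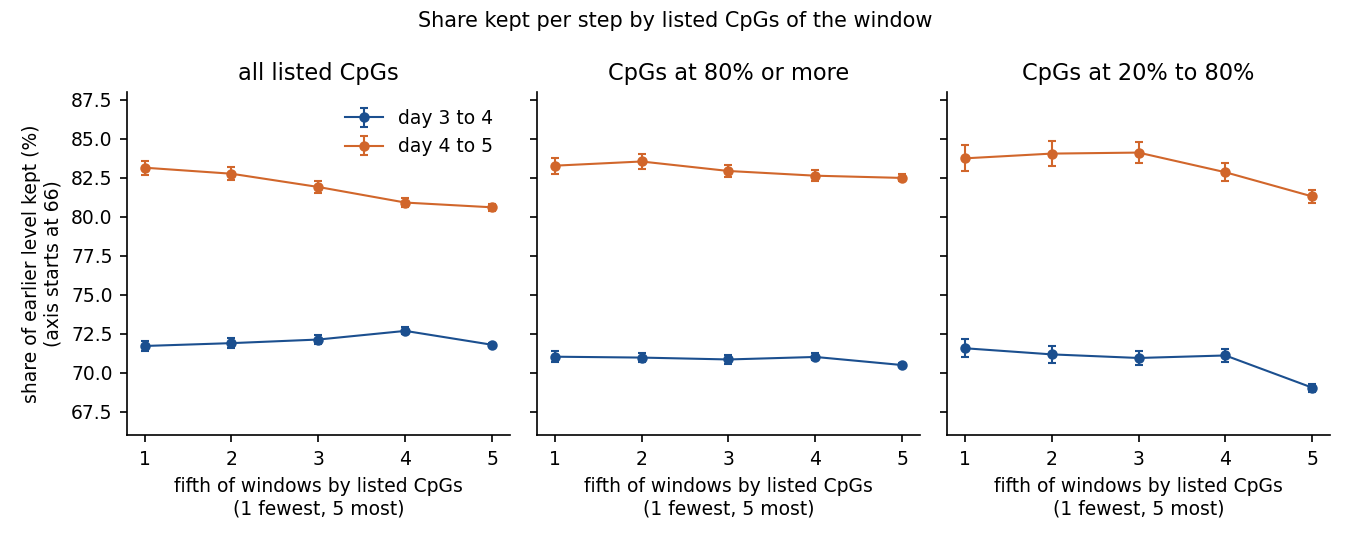
Share of the earlier level kept (percent, axis starting at 66) in 5 classes of windows by listed CpGs, for the step from day 3 to day 4 (blue) and from day 4 to day 5 (orange), over all listed CpGs and over CpGs of 2 levels on days 0 and 1. Bars are 95% counting intervals, and in each panel the second step lies above the first in all 5 classes.

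Every autosome showed both steps. Levels ranged over the 22 autosomes from 28.1 to 32.8% on day 3, from 20.2 to 23.8% on day 4 and from 16.5 to 19.2% on day 5. Chromosome 11 was lowest on all 3 days, at 28.1%, 20.2% and 16.5%. Chromosome 22 was highest, at 32.8%, 23.8% and 19.2%. The order was close to that of day 2, with r = 0.993 between days 2 and 3 over the 22 autosomes, which is given as a description. On single autosomes, day 4 was below day 3 in 94.4 to 99.0% of windows and day 5 below day 4 in 82.7 to 93.9%. Chromosome 19, which has the most listed CpGs per window, 390.8 on average, stood at 32.4%, 23.5% and 19.1%.

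Shares kept lay within a few points of each other on the 22 autosomes. From day 3 to day 4 they ran from 71.4% on chromosome 16 to 72.9% on chromosome 17, and from day 4 to day 5 from 80.1% on chromosome 21 to 82.9% on chromosome 12. On all 22 the second share was above the first, with intervals apart. The 22 autosomes were read in the same 3 libraries and both shares contain day 4, so they are not 22 separate observations of this order. Over both steps chromosome 21 kept the smallest share, 57.5% (56.9 to 58.2%), going from 30.1% to 21.6% and 17.3%. Chromosome 12 kept the largest, 59.8% (59.3 to 60.2%), going from 29.8% to 21.5% and 17.8%. The interval of chromosome 12 overlapped those of chromosomes 2, 5, 6, 14, 15 and 17. It lay above those of all other autosomes, among them chromosome 16 (57.4 to 58.1%) and chromosome 21. The difference between highest and lowest, 2.22 points, was 3.52 points when only CpGs at 80% or more were summed, 3.49 in 20-kb windows and 3.41 between medians of windows.

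Some of this order was also present in the deep libraries. The share kept from day 3 to day 5 and that from day 2 to day 6 correlated at r = 0.749 over the 22 autosomes. They have no library in common, but the longer interval contains the shorter, so they partly describe the same loss. The autosomes differ in level and CpG content, and the share kept from day 3 to day 5 correlated at -0.539 with the day 2 level and at -0.0597 with listed CpGs per window. Windows within 5 Mb of the outermost listed CpG of a chromosome, 1843 in number, stood at 33.6%, 24.0% and 19.3%, and those farther in at 28.9%, 20.9% and 17.1%. The outer windows kept 57.3% over both steps and the others 59.2%. They also had more listed CpGs, with a median of 260 against 132, and a higher level on day 2, 48.8% against 41.4%. Position was not separated from these differences.

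**Figure D4:**
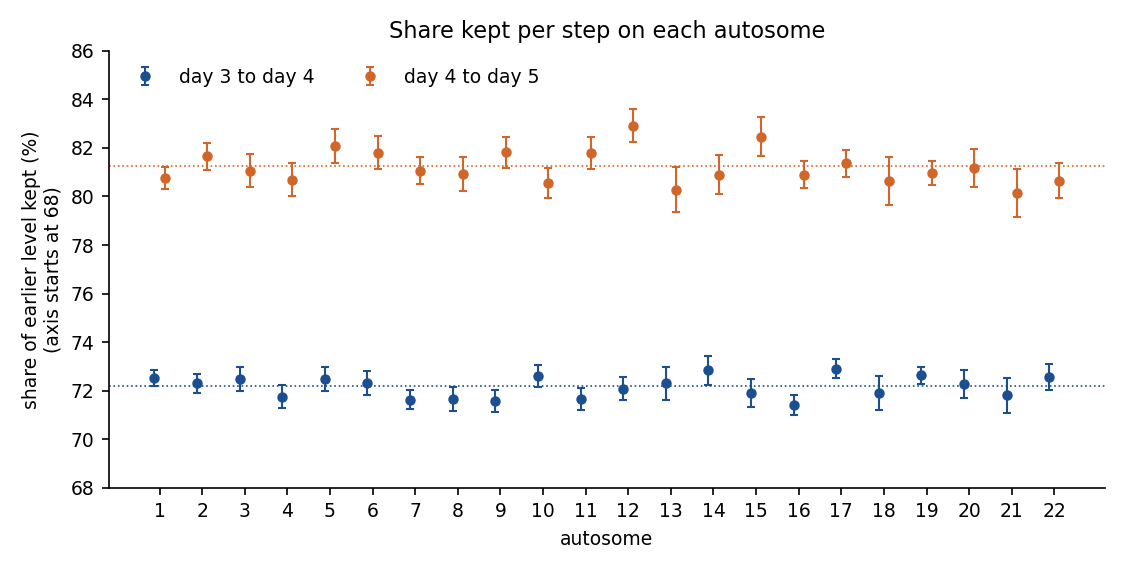
Share of the earlier level kept (percent, axis starting at 68) on each of the 22 autosomes, from day 3 to day 4 (blue) and from day 4 to day 5 (orange), with 95% counting intervals. Dotted lines are the shares over all kept windows, 72.2% and 81.2%, and the 2 steps do not overlap on any autosome.

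How far single windows departed from the common share was set beside counting error. Across the 10535 windows the natural log of the day 5 to day 3 ratio had an SD of 0.170, whereas counting error alone accounts for 0.105, so the observed SD was 1.63 times as large. In the 2234 windows with 1000 or more reads on each day the SDs were 0.119 and 0.0642, a ratio of 1.86. Because 1 read can span several CpGs, a ratio above 1 does not separate windows from the clustering of calls on reads. The 2 parts of a window, made of alternating 1-kb blocks with at least 500 reads each, correlated at r = 0.146 in the share kept and at r = 0.612 in the day 3 level (n = 1710 windows). With at least 100 reads in each part, r was 0.0528 for the share kept and 0.419 for the day 3 level (n = 8306 windows). Neighbouring windows correlated at r = 0.0233 in the share kept from day 3 to day 5 and at r = 0.305 in that from day 2 to day 6 (n = 6820 pairs). Weak correlations of this kind are descriptions of shallow data and not findings.

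The deep libraries showed how much of a window's rank was still visible there. The windows were put into 5 classes of 2107 by the share kept from day 3 to day 5, whose medians were 47.3%, 53.9%, 58.7%, 63.4% and 71.2%. The same windows kept medians of 29.3%, 29.5%, 30.0%, 30.4% and 30.6% from day 2 to day 6. The order of the 5 classes was the same, but their range shrank to 1.32 points, and the quartiles of the first class (27.1 and 31.2%) and the last (28.9 and 32.4%) overlapped. Over all 10535 windows r was 0.186, and it was 0.368 in the 2234 windows with 1000 or more reads.

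Single windows are named from the 479 with 1000 or more reads on each of the 3 days and a level of 40% or more on day 3. Their median share kept from day 3 to day 5 was 56.9%, and 90% of them lay between 47.7% and 65.5%. Coordinates are those of hg19. No annotation of that build was used, so the genes in these windows are not named. The ends of a ranking gather windows that counting error moved outward. The share from day 2 to day 6, with a median of 28.4% over the 479, is therefore given as well.

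The smallest share was kept by chr1:249200001-249300000, the last window of that chromosome with reads, with 130 listed CpGs. It had 599 of 1394 reads methylated on day 3 (43.0%), 309 of 1276 on day 4 (24.2%) and 207 of 1285 on day 5 (16.1%). It kept 37.5% (32.6 to 43.1%), and from day 2 to day 6 it kept 20.2%, below 99.8% of the 2234 deeper windows. Next came chr2:131300001-131400000, which went from 47.0% to 27.2% and 18.2% and kept 38.7% (33.9 to 44.3%). The window chr1:2800001-2900000, with 560 listed CpGs, went from 47.1% to 31.9% and 19.5% and kept 41.5%. The window chr8:800001-900000 went from 44.9% to 28.7% and 19.1% and kept 42.6%. The fifth, chr12:132000001-132100000, went from 46.0% to 30.5% and 19.7% and kept 42.8%. All 5 were also below the median of 28.4% from day 2 to day 6, at 20.2 to 26.7%. The next window in rank, outside the 5, kept 43.5%. Weighted equally, the CpGs read on days 3 and 5 in the 5 windows kept 38.1%, 38.6%, 42.1%, 47.9% and 44.5%, in the order given.

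The largest share was kept by chr22:50800001-50900000, with 400 listed CpGs. It had 855 of 1730 reads methylated on day 3 (49.4%), 546 of 1351 on day 4 (40.4%) and 520 of 1379 on day 5 (37.7%). It kept 76.3% (70.2 to 82.9%), and its share from day 2 to day 6, 40.3%, was above that of 99.9% of the 2234 deeper windows. The window chr8:1000001-1100000 went from 43.0% to 36.3% and 31.7% and kept 73.8%. Weighted equally, the 242 CpGs that were read there on days 3 and 5 kept 63.7%. The window chr6:157700001-157800000 went from 43.2% to 34.4% and 31.8% and kept 73.6%. The window chr17:78800001-78900000, with 652 listed CpGs, stood at 48.4%, 34.5% and 34.95% and kept 72.2%. The fifth, chr4:189000001-189100000, went from 51.9% to 39.4% and 37.3% and kept 71.9%. With equal weights the windows on chromosomes 22, 6, 17 and 4 kept 83.3%, 74.0%, 72.6% and 73.9%. From day 4 to day 5 the window on chromosome 8 kept 87.4% (78.4 to 97.5%), and in the other 4 the difference between these days was within counting error. From day 2 to day 6 these 5 kept 40.3%, 29.9%, 36.7%, 35.4% and 29.2%, in the order given, so the second and last stood near the median of 28.4% there. The windows on chromosome 8 at both ends of this order lie 100 kb apart, with 1 window between them.

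**Figure D5:**
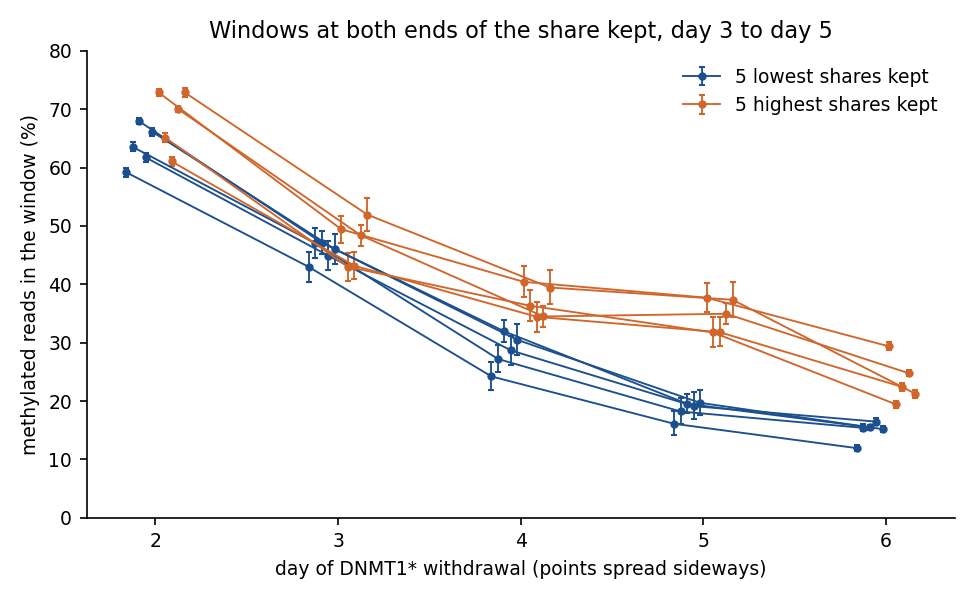
Percent of reads methylated (vertical axis) on days 2 to 6 (horizontal axis) in the 5 windows with the smallest (blue) and the 5 with the largest (orange) share kept from day 3 to day 5, with Wilson 95% intervals. The groups overlap on day 2, at 59.2 to 67.9% and 61.0 to 72.9%, and on day 3, which with day 5 chose them. On day 6 they stand at 11.9 to 16.5% and 19.4 to 29.4%.

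A few windows stood apart from the rest in level or direction, and these were looked up after their values had been seen. The 4 windows still at 50% or more on day 5 had 23 to 42 listed CpGs, and their 5 deepest CpGs held 57.4 to 78.5% of their reads. The window chr3:174400001-174500000 had 502 of 698 reads methylated on day 3 (71.9%), 334 of 523 on day 4 (63.9%) and 274 of 531 on day 5 (51.6%). The window chr9:66800001-66900000 had 332 of 551 (60.3%), 199 of 368 (54.1%) and 230 of 448 (51.3%), with up to 291 reads at 1 CpG in a library whose median was 4. The window chr9:3400001-3500000 stood at 69.9%, 55.8% and 50.4%, and chr2:193900001-194000000 at 66.7%, 53.6% and 54.5%. On day 6 the 4 windows stood at 39.97%, 19.1%, 32.0% and 33.8%, in the order given. They kept 71.7 to 85.2% from day 3 to day 5, but the day 5 level that chose them is part of this share. The part of such deeply covered CpGs in these values was not tested.

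Only 2 windows were higher on day 5 than on day 3 with intervals apart, and both were nearly unmethylated. The window chr9:69200001-69300000 had 25 of 666 reads methylated on day 3 (3.75%), 32 of 542 on day 4 (5.90%) and 38 of 487 on day 5 (7.80%), against 11.2% on day 2 and 2.89% on day 6. The share of its reads at CpGs of 20% or less was 88.3%, 80.4% and 77.2% on days 3, 4 and 5. The window chr18:55100001-55200000 had 49 of 1194 (4.10%), 35 of 1073 (3.26%) and 74 of 1004 (7.37%), against 6.07% on day 2 and 2.15% on day 6. There the share at CpGs of 20% or less was 91.7%, 91.1% and 85.9%. With the CpGs read on all 3 days weighted equally, the chromosome 18 window stood at 4.78%, 5.02% and 5.55%, and the chromosome 9 window at 5.60%, 6.86% and 10.9%.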

How the data were processed

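RRBS libraries of 8 days were deposited as 1 file each, with 1 CpG per line. The authors deposited methylated and all reads per CpG as a pair of whole numbers in column 4, which was used here, and a score that equals 1000 times the methylated share in 100% of lines of every file, which was not. The submitters' processing notes name hg19. For the aligner, the caller, read filters and handling of duplicates the entry is the same: not given in the sources used here.

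Reads were summed in 100-kb windows counted from base 1 of each autosome. Windows with 200 or more reads on days 3, 4 and 5 were kept. Levels have Wilson 95% intervals. A share kept is a ratio of levels, with a delta-method 95% interval on the log scale. There is 1 library per day, so no test was run between days, and correlations are descriptions. Named windows are the 5 highest and 5 lowest shares kept from day 3 to day 5 among windows of 1000 or more reads on each day and 40% or more on day 3. The members, classes and rules were chosen with earlier results of these data known. The calculation was first tested on simulated data with the real window depths. Python 3.11.15, numpy 2.4.6, pandas 2.3.3 and matplotlib 3.10.9 were used. Alternatives were read minimums of 100 and 1000, windows of 20 kb and 1 Mb, CpGs listed in all 3 files, equal weights, CpGs over 50 reads left out, equal depth, only highly methylated CpGs, and other limits and classes.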

Additional observations from a re-analysis of the deposited data

Results flagged for a closer look

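The X chromosome, which no comparison above used, carried a signal of the same kind. Its 409 windows with 200 or more reads on each of the 3 days stood at 35.1% on day 3 (Wilson 95% interval 34.9 to 35.3%), 25.7% on day 4 and 21.1% on day 5. They kept 73.3% from day 3 to day 4 and 82.2% from day 4 to day 5. Over both steps they kept 60.2% (59.6 to 60.8%), against 57.5 to 59.8% over the 22 autosomes. The difference from the autosomes was not tested.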

How the results depend on the processing

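No paired analysis was possible because each day has 1 library, and no library could be left out for the same reason. In each of the 11 alternatives tried for the median shares kept, the second step kept more than the first, but most values moved by more than counting error. The shares of the first and second step were 71.4% and 80.7% with 1000 reads asked per window, 70.1% and 81.1% in 20-kb windows, 72.1% and 82.3% in 1-Mb windows, 70.9% and 83.4% with each CpG weighted equally, 70.9% and 83.0% with only CpGs at 80% or more on days 0 and 1, 71.8% and 81.8% over all kept windows, and 71.7% and 81.9% with 20% asked on day 2. The second was 82.5% with 100 reads asked and 82.3% with CpGs listed in all 3 files. For listed CpGs, the 5 classes were cut anew over the windows that passed in each of the next alternatives, so their members differ. The difference between windows with most and fewest listed CpGs in the first step was -1.18 points with 1000 reads, -1.04 with equal weights and -0.38 with highly methylated CpGs. In the second step it was -3.27 with 100 reads, -0.28 with 1000 reads, -1.68 in 20-kb windows, -3.09 in 1-Mb windows, -0.50 with equal weights and -0.87 with highly methylated CpGs. The range over autosomes was 3.18 points with 1000 reads, 3.49 in 20-kb windows, 3.52 with highly methylated CpGs and 3.41 between medians of windows. The cause of these moves was not tested. Thinning each window to its lowest read total, or leaving out CpGs over 50 reads, moved none of the 5 results beyond the counting half-width of pooled reads. Depth limits single windows most: at a median of 542 reads on day 5, a step of a few points in 1 window was within its interval.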
